A study of Zea mays with 6 samples.

Results

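The genes described here are the neighbours of the edited gene ZmGA20ox3 in the numbering of the maize gene identifiers. They were chosen by identifier alone: numbers 50 below to 50 above Zm00001d042611, the identifier taken here for the edited gene, which itself was left out. Of these 100 numbers, 85 have a row in the deposited table of 44320 genes and 15 have none. Of the 85 neighbours, 41 reached 1 TPM (a transcript's share of its library, scaled for transcript length) in at least 3 of the 6 libraries and were tested.

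Leaves came from KO1, a line of Zea mays whose genotype label is a knockout of ZmGA20ox3 (3 libraries), and from wild-type plants, WT (3 libraries). All 6 libraries carry the cultivar label KN5585, the tissue label leaf and the label of normal growth, and leaves were taken at the V8 stage. In the growth protocol the WT line is written KN5855, and which spelling is right was not settled here. KO1 is 1 edited line, so the genotype and anything else particular to that line cannot be told apart. More than 1 greenhouse year is named for the series without saying which library belongs to which, so the part of year was not tested.

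Gibberellin 20-oxidases carry out the late oxidation steps in the making of bioactive gibberellins, the hormones that drive stem and leaf elongation in grasses. Identifiers of this form were assigned along the chromosomes of the maize reference line B73. Close numbers thus stand for genes that lie close together in B73, where the edited gene lies on chromosome 3. Their order in the plants used here was not checked. Stretches of chromosome around a selected site are inherited together with it, so the neighbours of an edited gene are where differences between an edited line and its comparison line in linked sequence would sit. Whether KO1 and WT, which carry the same cultivar label, hold any such differences was not tested. The table holds no coordinates, so distance is given in identifier numbers. It pairs no identifier with a gene name, and 0 of the 85 neighbours were found in the 49888 genes of the RefSeq table for Zm-B73-REFERENCE-NAM-5.0, so no neighbour is given a function and the leaf label was not checked against marker genes.

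The edited gene was lower in KO1 leaves. Zm00001d042611 had 0.56, 0.74 and 0.65 TPM in KO1 replicates 1 to 3, against 2.67, 4.53 and 4.10 TPM in WT. Every KO1 library lay below every WT library, and the transcript was present in KO1 at 0.17 times the WT mean. The difference on the log2(TPM + 1) scale was -1.51 (SE 0.23; limma adjusted p = 0.0115), and without WT replicate 3 it was -1.45 with a limma adjusted p of 0.0599. With a pseudocount of 0.1 in place of 1 the difference was -2.34. The number of reads behind levels this low is unknown.

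Most neighbours did not pass the test, and those that passed were all higher in KO1. Of 41 tested neighbours, 5 rose, 0 fell and 36 did not pass at a limma adjusted p under 0.05. That is 12.2% of the tested neighbours, against 15.7% of all 20990 tested genes in the same fit. In the direction of higher levels the share was 12.2% of neighbours against 9.87% of all tested genes, and in the direction of lower levels it was 0 of 41 against 5.86%. Over both directions the share was near that of all tested genes. The count was 3 without KO1 replicate 1, 3 without WT replicate 1 and 2 without WT replicate 3, and it was 12, with 4 lower in KO1, when libraries were weighted by their spread. The share of all tested genes moved along with it: it was 7.06%, 6.26% and 3.71% without these libraries, where the neighbours had 7.32%, 7.32% and 4.88%, and 32.6% with weights, where the neighbours had 29.3%. Under quantile normalization 2 neighbours were lower in KO1. The 5 that rose were Zm00001d042598, Zm00001d042599, Zm00001d042621, Zm00001d042634 and Zm00001d042643. Across the libraries all 5 lay without overlap, with KO1 above WT, while the edited gene between them lay the other way. The 5 were selected on this difference, so their separation is no further support. KO1 lay wholly above WT for 22.9% of all tested genes.

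**Figure D1:**
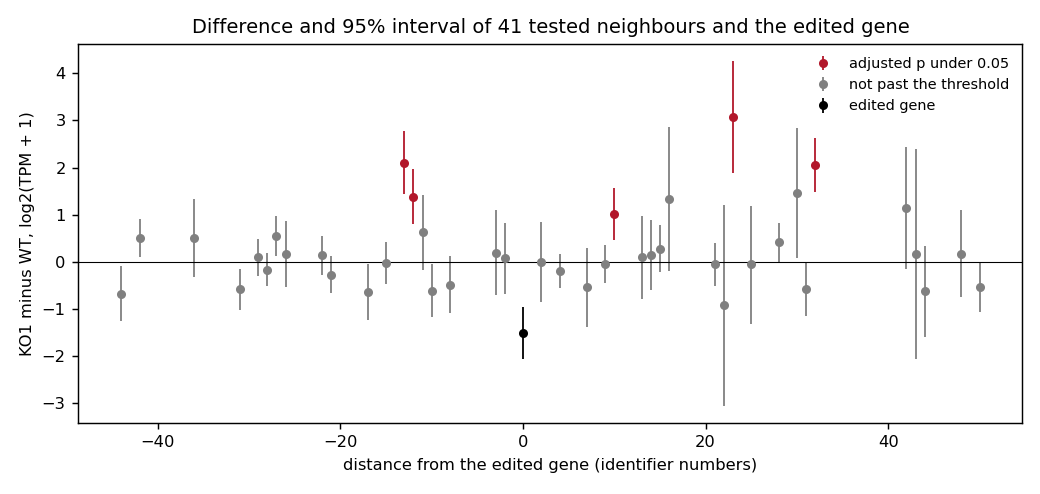
Difference in log2(TPM + 1) between KO1 and WT leaves (points) with its 95% interval from limma (lines), against distance from the edited gene in identifier numbers, for the 41 tested neighbours and the edited gene (black, at 0). The 5 neighbours past the threshold (red) lie between 1.02 and 3.08, at distances of 13 and 12 numbers on the lower side and 10, 23 and 32 on the higher side; the grey points did not pass.

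Zm00001d042634, 23 numbers above the edited gene, showed the highest difference in the neighbourhood. It had 17.6, 50.1 and 35.0 TPM in KO1, against 1.32, 5.62 and 2.71 TPM in WT. The lowest KO1 library stood well above the highest WT library, although both groups varied widely within themselves. The mean was 34.3 ± 16.3 TPM in KO1 and 3.22 ± 2.19 TPM in WT (SD, n = 3 each), a ratio of 10.65 (log2 difference 3.08, SE 0.50; limma adjusted p = 0.0134). Without WT replicate 3 the limma adjusted p was 0.0598, with a log2 difference of 3.05. The genes directly before and after it among the tested neighbours behaved otherwise. Zm00001d042633 had 8.45, 2 and 0.92 TPM in KO1 and 1.63, 21.4 and 5.36 TPM in WT, with overlapping groups. Zm00001d042636 had 2.91, 2.32 and 1.03 TPM in KO1 and 0.44, 4.24 and 2.99 TPM in WT, also overlapping.

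Zm00001d042643, 32 numbers above the edited gene, gave the lowest adjusted p of the neighbours. It had 20.9, 13.4 and 14.7 TPM in KO1, against 3.03, 3.96 and 2.44 TPM in WT. The groups lay far apart, with 13.4 TPM in the lowest KO1 library and 3.96 TPM in the highest WT library. The mean was 16.4 ± 4.03 TPM in KO1 and 3.14 ± 0.766 TPM in WT (SD, n = 3 each), a ratio of 5.20 (log2 difference 2.06, SE 0.24; limma adjusted p = 0.00499). Together with Zm00001d042598 it passed the threshold in all 15 alternative fits.

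A pair of consecutive identifiers on the lower side, 13 and 12 numbers from the edited gene, rose together. Zm00001d042598 had 43.1, 59.8 and 41.6 TPM in KO1, against 7.46, 15.1 and 9.58 TPM in WT, a ratio of means of 4.49 (log2 difference 2.10, SE 0.28; limma adjusted p = 0.00739). Zm00001d042599 had 50.1, 31.0 and 37.7 TPM in KO1, against 15.5, 17.4 and 10.8 TPM in WT, a ratio of means of 2.72 (log2 difference 1.38, SE 0.25; limma adjusted p = 0.0183). Both genes had similar levels in each genotype, but their order of libraries within KO1 differed: replicate 2 was the highest for Zm00001d042598 and the lowest for Zm00001d042599. The call on Zm00001d042599 was lost without KO1 replicate 1 (limma adjusted p = 0.0514), without WT replicate 1 (0.0513) and without WT replicate 3 (0.0701).

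The identifiers that follow this pair did not pass. Zm00001d042600 had 60.1, 29.3 and 45.1 TPM in KO1 and 39.6, 20.5 and 25.7 TPM in the WT libraries (log2 difference 0.62, SE 0.33; limma adjusted p = 0.235). Its groups overlapped. Zm00001d042601, the most abundant neighbour by the mean of all 6 libraries and that of WT, but not that of KO1, had 82.7, 74.6 and 115 TPM in KO1 and 174, 113 and 131 TPM in the WT libraries (log2 difference -0.62, SE 0.24; limma adjusted p = 0.119). Of its 3 KO1 libraries, 2 lay below every WT library and the third just above the lowest WT library. Within 4 consecutive identifiers the log2 difference thus ran through 2.10, 1.38, 0.62 and -0.62. Each 95% interval overlapped the next, the run was picked from a called gene, and a trend along it was not tested. Zm00001d042596, the closest row below the pair, had 83.3, 68.5 and 64.6 TPM in KO1 and 89.0, 69.1 and 63.5 TPM in WT, and its log2 difference had a 95% interval of -0.47 to 0.42.

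Zm00001d042621, 10 numbers above the edited gene, was the nearest neighbour past the threshold and the smallest of the 5 changes. It had 24.6, 24.3 and 18.4 TPM in KO1, against 8.42, 14.0 and 9.64 TPM in WT. The groups stood clear of each other by a few TPM. The mean was 22.4 ± 3.45 TPM in KO1 and 10.7 ± 2.96 TPM in WT (SD, n = 3 each), a ratio of 2.10 (log2 difference 1.02, SE 0.23; limma adjusted p = 0.0328). It is also the least firm of the 5: the limma adjusted p was 0.0914 without KO1 replicate 1, 0.0825 without KO1 replicate 2, 0.0909 without WT replicate 1 and 0.122 without WT replicate 3.

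**Figure D2:**
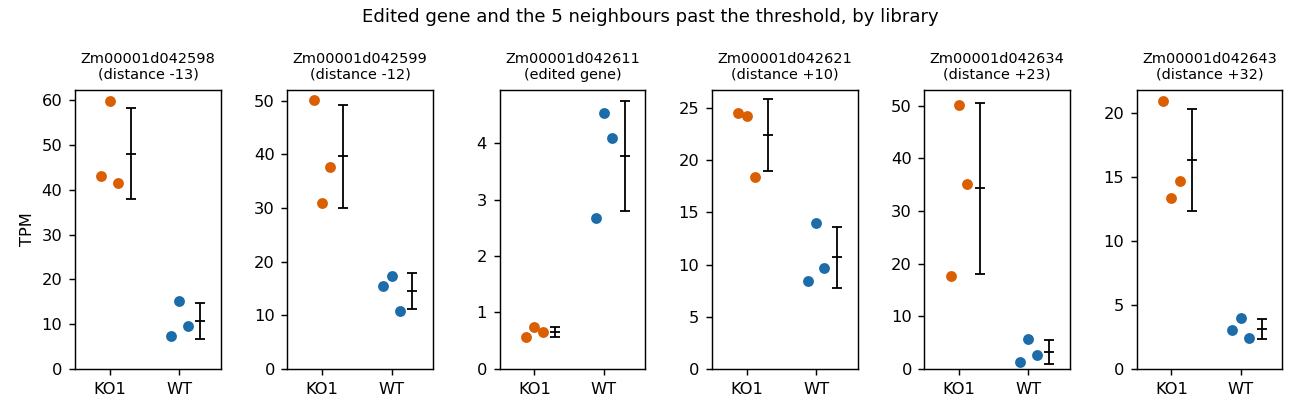
TPM in each library (points; KO1 left, WT right) with the mean and SD of 3 libraries (black) for the edited gene Zm00001d042611 and the 5 neighbours past the threshold, each panel on its own scale from 0. Zm00001d042611 is the panel with KO1 below WT. In the other 5, which were selected on this difference, every KO1 library lies above every WT library.

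Of the 9 tested neighbours within 10 numbers of the edited gene, Zm00001d042621 passed the threshold. Between the nearest called neighbour on each side lie 9 that did not pass apart from the edited gene itself. On the lower side, Zm00001d042609 had 81.7, 35.2 and 69.6 TPM in KO1 and 48.6, 59.2 and 60.5 TPM in WT, with KO1 spread around all the WT values. Zm00001d042608 had 1.63, 1.23 and 0.53 TPM in KO1 and 0.19, 1.79 and 0.83 TPM in WT. Both are weakly determined, with 95% intervals of the log2 difference from -0.69 to 0.83 and from -0.72 to 1.10. Zm00001d042603 had 27.1, 14.8 and 25.2 TPM in KO1 and 28.0, 29.8 and 35.2 TPM in WT. Its KO1 libraries were all lower, by less than 1 TPM at the closest, and it did not pass (log2 difference -0.49, SE 0.25; limma adjusted p = 0.219).

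On the higher side the nearest tested row was Zm00001d042613. It had 5, 2.64 and 8.10 TPM in KO1 and 3.93, 6.13 and 4.68 TPM in WT, with KO1 values on both sides of the WT range. Zm00001d042615 had 18.4, 15.0 and 15.2 TPM in KO1 and 19.2, 18.0 and 18.6 TPM in WT, and Zm00001d042620 had 87.4, 89.5 and 73.5 TPM in KO1 and 93.7, 72.6 and 94.4 TPM in WT. These 2 are the best determined of the close neighbours: the 95% interval of the log2 difference was -0.56 to 0.17 for Zm00001d042615 and -0.46 to 0.36 for Zm00001d042620. Zm00001d042618 had 1.65, 1.05 and 2.02 TPM in KO1 and 2.81, 4.63 and 1.42 TPM in WT, overlapping (95% interval -1.39 to 0.28).

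**Figure D3:**
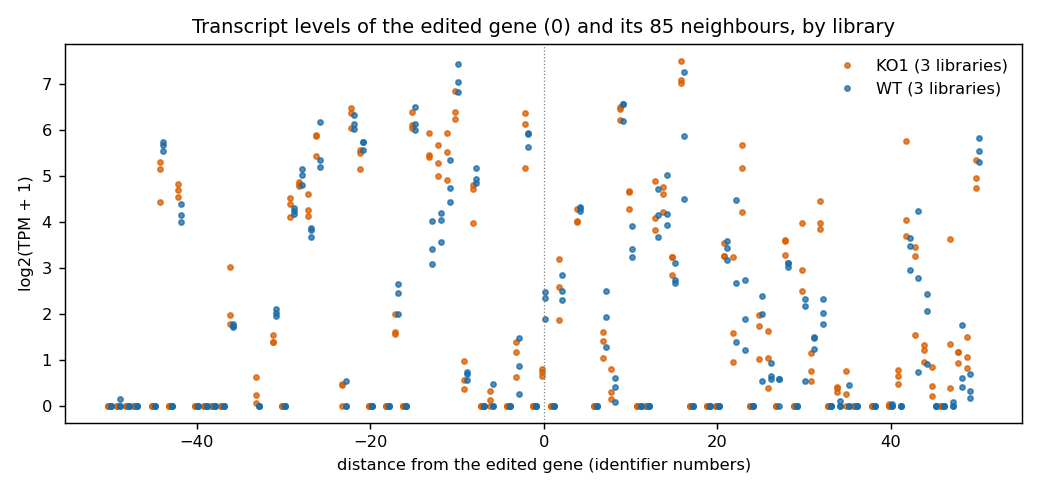
Level of the edited gene (at 0) and its 85 neighbours in each library, as log2(TPM + 1), against distance from the edited gene in identifier numbers; orange points are the 3 KO1 libraries and blue points the 3 WT libraries, offset to either side for sight. Rows at 0 in all 6 libraries alternate with expressed rows along the whole stretch, and for most expressed rows the 2 colours overlap or lie close.

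The neighbourhood mixes silent rows with moderately abundant ones. Of the 85 neighbours, 29 (34.1%) were listed at 0 in all 6 libraries, against 30.7% of the whole table. Another 15 were above 0 in some library but did not reach 1 TPM in 3 libraries. They stayed at or under 2.1 TPM in every library, except Zm00001d042658, which had 0.30, 11.3 and 1.53 TPM in KO1 and 0, 0.05 and 0 TPM in WT. The 41 tested neighbours had a median of 18.2 TPM over the 6 libraries (quartiles 5.67 and 36.7), against 12.6 TPM for all tested genes, and 33 of them reached 1 TPM in every library. The next after Zm00001d042601 by the mean of all 6 libraries, and the highest in each KO1 library, was Zm00001d042627, with 130, 180 and 136 TPM in KO1 and 21.7, 153 and 57.6 TPM in WT. WT replicate 1 was the lowest library there and WT replicate 2 lay within the KO1 range (log2 difference 1.33, SE 0.64; limma adjusted p = 0.196), and without WT replicate 2 the limma adjusted p was 0.0332. Zm00001d042589 had 88.5, 81.2 and 65.5 TPM in KO1 and 69.0, 63.8 and 79.9 TPM in WT, with overlapping groups.

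Summed over the 85 neighbours, the level was 1210, 1187 and 1124 TPM in KO1 and 996, 1098 and 968 TPM in WT. Every KO1 sum lay above every WT sum, at 1174 ± 44.6 TPM in KO1 and 1021 ± 68.0 TPM in WT (SD, n = 3 each; two-sided exact permutation p = 0.1, the smallest that 3 against 3 can give). The 5 called genes, which were selected on this difference, summed to 156, 179 and 148 TPM in KO1 and 35.7, 56.1 and 35.2 TPM in WT. The other neighbours summed to 1054, 1009 and 977 TPM in KO1 and 961, 1041 and 933 TPM in WT, where the groups overlapped. Neighbours at 1 TPM or more numbered 41, 43 and 39 in the KO1 libraries and 36, 40 and 39 in the WT libraries (two-sided exact permutation p = 0.3). Over the whole table, genes at 1 TPM or more numbered 20697 to 21115 in KO1 libraries and 19282 to 20537 in WT libraries, and the part of this in the neighbourhood was not tested.

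Looser criteria also gave shares near those of all tested genes. At an unadjusted p under 0.05 there were 14 neighbours (34.1%), against 34.3% of all tested genes. Of these, 8 were higher in KO1 (background 20.2%) and 6 lower (background 14.2%). Groups without overlap were found for 15 neighbours (36.6%), against 40.5% of all tested genes. KO1 lay above WT in 10 of them (24.4%, background 22.9%) and below WT in 5 (12.2%, background 17.6%).

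The 9 neighbours with an unadjusted p under 0.05 that did not pass after adjustment had limma adjusted p-values of 0.073 to 0.141. Of these, 6 were lower in KO1 and 3 higher. Over all tested genes, 4231 were higher and 2972 lower at an unadjusted p under 0.05, and 2071 and 1230 of them passed after adjustment. Those left over were thus more often higher than lower, and the split of the 9 neighbours was not tested against this. The 3 examples that follow are outside the rule for named genes and were picked after their values were seen. Zm00001d042580 had 1.61, 1.63 and 1.89 TPM in KO1 and 3.04, 3.30 and 2.89 TPM in the WT libraries (limma adjusted p = 0.073), with tight and separate groups at a low level. Zm00001d042567 had 34.4, 20.7 and 38.6 TPM in KO1 and 45.9, 50.04 and 52.2 TPM in the WT libraries (limma adjusted p = 0.10). In the other direction, Zm00001d042584 had 18.2, 23.4 and 16.5 TPM in KO1 and 11.8, 13.1 and 13.7 TPM in the WT libraries (limma adjusted p = 0.0855). Both of these also had groups without overlap.

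The size of the differences was close to that of the whole table. The median absolute log2 difference was 0.50 for the tested neighbours (quartiles 0.16 and 0.65) and 0.42 for all tested genes (quartiles 0.19 and 0.84). The signed median was 0.09 for the neighbours and 0.05 for all tested genes. The difference was above 0 for 23 neighbours (56.1%, background 53.1%) and below 0 for 18, and it ran from -0.93 to 3.08. A difference of at least 1 in either direction was found for 8 neighbours (19.5%), against 19.7% of all tested genes, and a difference of at least 2 for 3 (7.32%), against 5.46%. For 17 of the 36 neighbours that did not pass, the 95% interval lay within 1 log2 unit of 0 on both sides, so a difference of 1 was outside the interval. For the other 19 the interval reached 1 or -1. The interval thus lay within 1 for 47.2% of these neighbours, against 55.3% of all tested genes that did not pass.

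Replicates of the neighbours scattered about as much as those of other genes. Within genotypes, the SD of log2(TPM + 1) had a median of 0.28 in KO1 and 0.27 in WT for the tested neighbours, and 0.29 in KO1 and 0.24 in WT for all tested genes. A few neighbours varied widely between libraries of 1 genotype. The within-group SD was above 1 for 3 neighbours in KO1 (Zm00001d042633, Zm00001d042653 and Zm00001d042654) and for 3 in WT (Zm00001d042654, Zm00001d042633 and Zm00001d042627). That is 7.32% of tested neighbours in each genotype, against 5.06% of all tested genes in KO1 and 4.99% in WT. Zm00001d042654 had 8.53, 9.94 and 1.89 TPM in KO1 and 0.66, 17.8 and 5.82 TPM in WT. In all 3 of the WT set, WT replicate 1 was the lowest and WT replicate 2 the highest. The same libraries often held those places elsewhere: WT replicate 1 was the lowest WT library for 48.8% of tested neighbours and 49.9% of all tested genes, and WT replicate 2 the highest for 51.2% and 42.0%.

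No neighbour was switched fully on or off by genotype at 1 TPM or more. Being listed at 0 in each library of 1 genotype and at 1 TPM or more in each library of the other held for 0 of the 85 neighbours, against 0.293% of the table. With any level above 0 in place of 1 TPM, a criterion chosen after the values were seen, 3 neighbours (3.53%) were listed at 0 in each WT library and above 0 in each KO1 library, against 0.936% of the table. The reverse held for 0 neighbours, against 0.386% of the table. The 3 were Zm00001d042578 with 0.18, 0.55 and 0.04 TPM in KO1, Zm00001d042652 with 0.38, 0.70 and 0.56 TPM in KO1, and Zm00001d042656 with 0.16, 0.35 and 0.80 TPM in KO1. All of these levels are under the minimum for testing in the main fit. With no filter on low values, Zm00001d042652 was among 6 called of 56 neighbours tested (10.7%, against 7.96% of all genes in that fit). In a table without counts a 0 can be a low level or a failed estimate, and KO1 libraries held more genes at 1 TPM or more throughout.

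By distance from the edited gene, the counts of calls were small in every band, set beside a share of 15.7% over all tested genes, and the bands were not tested against each other. Of 9 tested neighbours at 1 to 10 numbers, 1 was called (11.1%). At 11 to 25 numbers 3 of 15 were called (20%), and at 26 to 50 numbers 1 of 17 (5.88%). Within 25 numbers, 4 of 24 were thus called (16.7%). The median absolute log2 difference was 0.19, 0.28 and 0.54 over these 3 bands, lowest next to the edited gene. Each band holds fewer than 20 tested genes, and without KO1 replicate 1, KO1 replicate 2, WT replicate 1 or WT replicate 3 the count in the nearest band was 0. Both sides gave like values, with 2 of 19 called on the side of lower numbers (median absolute log2 difference 0.50) and 3 of 22 on the side of higher numbers (0.48).

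Beside the 15.7% of all tested genes, the stretches just outside the neighbourhood held a share above it on the lower side and one near it on the higher side, without a test of either. Over the next 100 numbers below, 11 of 49 tested genes were called (22.4%), with 8 higher and 3 lower in KO1. Over the next 100 numbers above, 8 of 52 were called (15.4%), with 7 higher and 1 lower. Among the 10 windows of the same width on each side, 16 of 20 held a share of called genes as high as that of the neighbourhood or higher, with a range of 8.82% to 27.5%. These counts are of the main fit. Over all windows elsewhere, the part as high or higher ran from 22.6% to 68.9% by setting, with the main fit the highest.

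**Figure D4:**
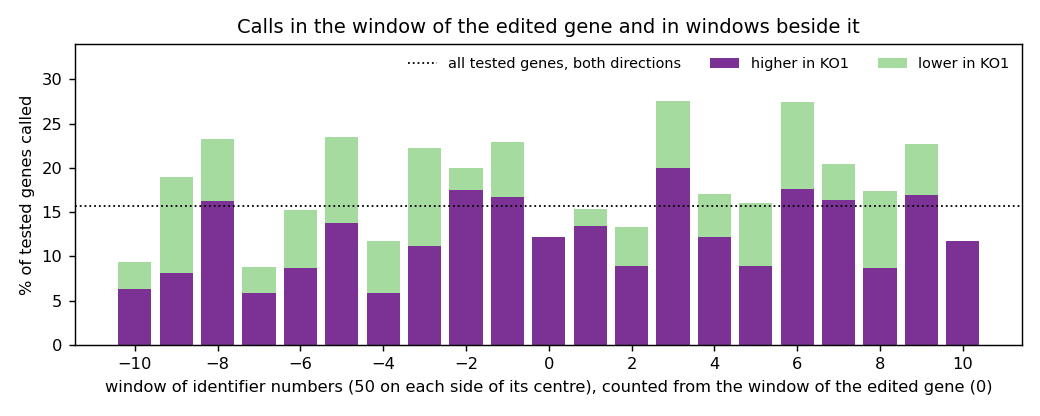
Share of tested genes called at a limma adjusted p under 0.05 in the window of the edited gene (0, edited gene left out) and in the 10 windows of the same width, in identifier numbers, on each side, split into higher and lower in KO1; the dotted line is the share over all tested genes, 15.7%. In the main fit, which is shown, the window of the edited gene stands at 12.2%, all of it higher in KO1. In that fit 16 of the 20 others stand as high or higher.

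Against windows of the same width elsewhere, the neighbourhood lay inside the range of values. Tiling all identifiers of this form outward from the edited gene gave 505 other windows with at least 20 tested genes. Their share of called genes ran from 2.17% to 41.4% with a median of 15.2% (quartiles 11.1% and 19.4%), and 348 of the 505 (68.9%) were as high as the neighbourhood's 12.2% or higher. That is the highest such number over the settings run. Without any 1 library it was 159 (without WT replicate 3) to 229 (without WT replicate 2) of 505 windows, or 31.5% to 45.3%. With all 6 libraries it was 22.6% with no filter on low values and 41.6% with quantile normalization. It was 52.5% without the variance trend and 64.6% with library weights. Whether the neighbourhood lay below or above the middle of the windows thus depended on the setting. For calls in the direction of higher levels, 177 of 505 windows (35.0%) held 5 or more. Windows without any lower call numbered 58 of 505 (11.5%), so the absence of lower calls was also found elsewhere. The median absolute log2 difference ran from 0.21 to 0.95 over the other windows with a median of 0.42, and in 121 of 505 (24.0%) it was as high as the neighbourhood's 0.50 or higher. The windows can hold the ends of chromosomes, whose positions in the numbering were not used here, and genes in a window are not independent of each other, so these ranks are a description and not a test.

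**Figure D5:**
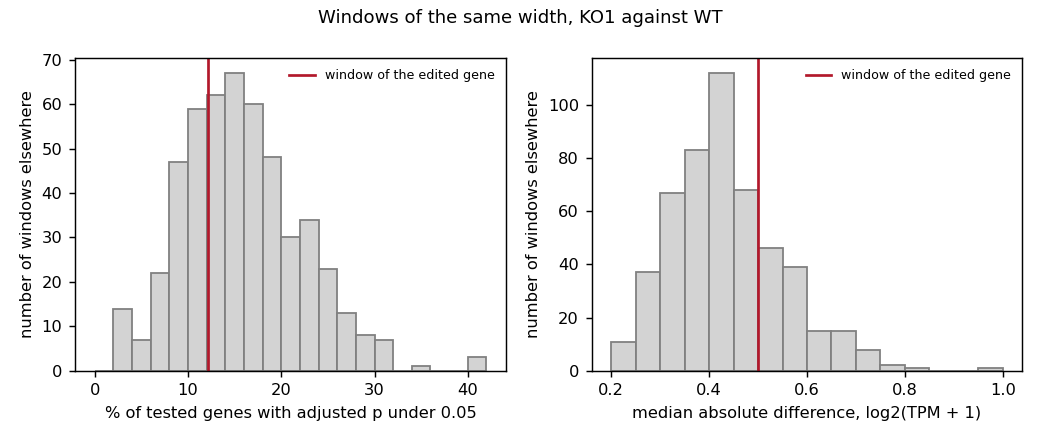
Left, share of tested genes called at a limma adjusted p under 0.05 in 505 windows of the same width in identifier numbers elsewhere (grey bars, number of windows); right, the median absolute difference in log2(TPM + 1) in the same windows. The red lines mark the window of the edited gene, at 12.2% and 0.50, both within the range of the other windows.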

How the data were processed

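The authors deposited 1 table of TPM values per gene for 6 leaf libraries, rounded to 2 decimals, and each column sums to 1000000 apart from rounding. The submitters' processing notes list RSEM, Bowtie2 and DESeq2 with no version or role. Build and annotation: not given in the sources used here. Depth cannot be read from TPM, so no counting intervals are given, and a rise of some transcripts lowers the TPM of the rest.

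Genes at 1 TPM or more in at least 3 of 6 libraries were fitted together with a variance trend on log2(TPM + 1), KO1 against WT, by limma 3.58.1 in R 4.3.3, two-sided, with Benjamini-Hochberg adjustment over all 20990 tested genes at 0.05. The log2(TPM + 1) scale understates changes of low genes, and ratios are of mean TPM. Neighbours were read from this fit, and no test was made over the list. Windows, 50 numbers on each side of a centre that was left out, were tiled from the edited gene. Single sums were compared by exact permutation tests (SciPy 1.17.1). Plots used matplotlib 3.10.9.

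The libraries are labelled biological replicates. The main fit did not pair them by replicate number. Deviations from the genotype means correlated at -0.01, 0.09 and 0.02 between same-numbered libraries. These values cannot show whether same-numbered libraries were grown or processed together. The text names the edited gene, every called neighbour, the 5 tested neighbours nearest on each side and the 5 most abundant. Other neighbours that it names lie outside this rule. Neighbours, windows and rules were chosen with earlier results of these data known. Alternatives covered pseudocount, filter, scaling, variance model, library weights, replicate block, leaving out each library and window width. No sequence is shown, since the reference table could not be joined to these identifiers.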

Additional observations from a re-analysis of the deposited data

How the results depend on the processing

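The 5 calls among the neighbours were also 5 with a pseudocount of 0.1 or 0.5, with trimmed-mean scaling and with 1 TPM required in all 6 libraries, each time the same genes. Their share was 12.2% with either pseudocount and with trimmed-mean scaling. The share of all tested genes was then 14.6% (0.1), 15.5% (0.5) and 15.8% (scaling). With 1 TPM in all 6 libraries the neighbours had 15.2% and all tested genes 13.6%. With no filter on low values the count was 6 of 56 tested, the same 5 and Zm00001d042652. With a replicate block the count was 6, including all 5 (14.6%, against 13.4% of all tested genes). Whether the numbers pair the libraries is not known. Library weights gave 12 calls, including the 5 and 4 lower in KO1, where all tested genes gave 6838 in place of 3301 calls; WT replicate 3 then had a weight of 8.53 and no other library over 1.07. Quantile normalization gave 7 (17.1%, against 16.2% of all tested genes), of which 2 were lower in KO1. It shifted the median of all genes to -0.09 from 0.05 (log2). Thus 0 lower calls did not hold under that scaling, under weights or without the variance trend (1 lower of 6). Without the trend the neighbours had 14.6% and all tested genes 15.5%. Whether the neighbours' share lay above or below that of all tested genes depended on the setting. Leaving out each library gave 2 to 6 calls among the neighbours, 778 to 2929 over all genes, and 0 to 1 at 1 to 10 numbers; the lowest of the first and second were without WT replicate 3, and the cause was not tested. With 100 numbers on each side 14 of 87 were called, a share near the 15.7% of all tested genes. The neighbours' count stayed within 1.5 times of 5 in 13 of 18 alternatives. These include the widths of 25 and 100 numbers, whose counts are of other sets of genes. They also include a required difference of at least 1, which all 5 calls already met. The median absolute log2 difference was 0.36 with no filter on low values, 0.38 with quantile normalization and 0.27 with 25 numbers on each side. The number of windows as high as the neighbourhood or higher was 176 of 483 with 1 TPM in all libraries, 121 of 535 with no filter, 210 with quantile normalization, 208 with the replicate block, 159 to 229 leaving out each library (505 windows each), 212 of 544 at 25 numbers on each side and 111 of 267 at 100; it stayed between 22.6% and 68.9% of windows in all 19 settings. The edited gene kept its direction in all 14 alternative fits and missed the threshold in 1, without WT replicate 3 (log2 difference -1.45, limma adjusted p = 0.0599), with a range of -1.69 to -1.39 when each library was left out; over the other fits the largest fall was -2.34, with a pseudocount of 0.1.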
